A study of Mus musculus with 9 samples.

Results

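Ptgs2, the inducible cyclooxygenase, and Ptger4, the EP4 receptor for prostaglandin E2, rose in NIH 3T3 fibroblasts given cytochalasin D, and the prostaglandin E synthases Ptges and Ptges2 were not called. These genes are part of a set of 6 that covers cyclooxygenases (Ptgs1, Ptgs2), prostaglandin E synthases (Ptges, Ptges2, Ptges3) and a receptor (Ptger4). Members were taken as every probe set that the platform annotation gives to 1 symbol, that symbol being one of the 6. This gave 8 probe sets for 4 genes, among 45101 probe sets on the array, where 18193 genes have such a probe set. They were 2 for Ptgs2, 3 for Ptges, 1 for Ptges2 and 2 for Ptger4. No probe set carried Ptgs1, and both probe sets of Ptges3 also carried a pseudogene symbol and were left out, so neither gene has a value here.

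The 9 arrays hold total RNA of serum-starved NIH 3T3 cells, an established mouse fibroblast line, in 3 groups of 3. Every group, controls included, had received the translation blocker cycloheximide (3 µg/ml for 2 h), so all levels were measured under a block of protein synthesis. The control group had no further drug, the second group had cytochalasin D (2 µM for 90 min), and the third had latrunculin B (5 µM) together with cytochalasin D (2 µM), both for 90 min. The sample titles of this last group mention latrunculin B only, whereas the agent given for it and the design text list the pair, and the pair was taken. The design calls the 3 arrays of a condition independent biological replicates, and the labels number them 1, 3 and 7. Both drugs disrupt actin filaments. Cytochalasin D caps filament ends and frees the coactivator MRTF from actin monomers, whereas latrunculin B binds the monomers and leaves MRTF attached to them, which is the actin switch named in the series title.

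Prostaglandin E2 is made in steps: a phospholipase frees arachidonic acid, a cyclooxygenase turns it into prostaglandin H2, and a prostaglandin E synthase turns that into prostaglandin E2, which then acts on receptors of the EP family. Ptgs1 is the constitutive cyclooxygenase, and Ptgs2 is an immediate-early gene that growth factors, cytokines and mechanical cues switch on in fibroblasts without new protein. Ptges is the membrane-bound synthase that often follows Ptgs2 in inflammation, while Ptges2 and Ptges3 are mostly constitutive, and Ptges3 is also known as the Hsp90 co-chaperone p23. Ptger4 couples to the stimulatory G protein and raises cyclic AMP.

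The promoters of both genes that rose are shown so that the regulatory letters next to both starts can be read beside the values. RefSeq windows (GRCm38.p6) of 250 bases before to 50 after the annotated start were found for all 6 members. The 250 bases before the start are given 5′ to 3′ on the gene's strand, Ptgs2 at chr1:150099781-150100030 on the plus strand and Ptger4 at chr15:5244188-5244437 on the minus strand, with motif matches in capitals.
Ptgs2: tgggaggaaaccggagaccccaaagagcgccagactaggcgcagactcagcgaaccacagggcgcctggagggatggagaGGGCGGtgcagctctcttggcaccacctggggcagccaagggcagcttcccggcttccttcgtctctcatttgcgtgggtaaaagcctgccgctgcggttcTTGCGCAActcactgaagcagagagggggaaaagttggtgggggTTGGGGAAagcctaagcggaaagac
Ptger4: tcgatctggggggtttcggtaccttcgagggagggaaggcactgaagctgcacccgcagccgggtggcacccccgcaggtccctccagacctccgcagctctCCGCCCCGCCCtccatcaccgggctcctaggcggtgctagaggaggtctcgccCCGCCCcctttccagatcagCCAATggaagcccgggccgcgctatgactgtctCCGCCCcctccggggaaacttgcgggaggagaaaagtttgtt

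In Ptgs2 the capitals mark a GC box (GGGCGG) and a pair of C/EBP sites (TTNNGNAA). In Ptger4 they mark 4 GC boxes on the opposite strand, of which the first and the second overlap by 1 base, and a CCAAT box. Just after the annotated Ptgs2 start lies one more stretch, a cyclic AMP response element (CRE) core (CGTCA) that shares 2 bases with an E-box (CACGTG), at chr1:150100038-150100058, again with the matches in capitals.
Ptgs2 site: ccactaCGTCACGTGgagtcc

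All motifs were searched on both strands of the full 300-base windows. Among 32817 RefSeq windows, 20.8% held the CRE core, 7.15% the E-box, 40.7% the C/EBP site, 35.6% the GC box and 37.4% the CCAAT box. Of the members that were not called or had no value, Ptges held a C/EBP site and GC boxes in its window. The window of Ptges2 held an E-box and a C/EBP site, and that of Ptges3 a CRE core and GC boxes. The E-box, the C/EBP site and the GC box were thus also found in members that were not called. Ptgs2 shared the CRE core with Ptges3 alone, which has no value here, and the CCAAT box matched in Ptger4 alone. The window of Ptgs1 held none of these motifs. The CArG box, which SRF binds, had no match in the windows of the 6 members and is found in 1.63% of all windows. The AP-1 site (TGANTCA, 7.81% of windows) and the TATA box (TATAAA, 13.6%) had none either, and the NF-kappaB site (8.46%) had a match in the window of Ptges3 alone. The window of the long non-coding RNA gene Ptgs2os, read from the other strand, shares 256 bases with that of Ptgs2, and no probe set was named for it. A match is a stretch of letters and no measure of binding.

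Intensities are linear values normalized by the authors, and tests were made with limma on log2(intensity + 16) over the 27034 probe sets that lay above the 40th percentile of their array on at least 3 arrays, with Benjamini-Hochberg adjustment and a call at an adjusted p under 0.05. Of the 8 member probe sets 7 passed this filter, each on all 9 arrays. The 40th percentile lay between 6.15 and 6.34. The Ptges probe set 1449449_at did not pass, with values from 5.59 to 6.05. Median intensities per array ran from 7.57 to 7.84. Of the fibroblast markers 11 of 12 had a probe set, all above 100 on every array, and the summed level ran from 125108 to 135126 in controls, from 126488 to 132497 with cytochalasin D and from 126876 to 129472 with both drugs. Markers of mast, epithelial and endothelial cells were under 20 on every array (7 of 7 in each list), as were 7 of 10 macrophage and leukocyte markers, Cd68 and Adgre1 among them, while Cd14 was above 100. The summed level of that list was 382 to 454 in controls, 293 to 395 with cytochalasin D and 344 to 400 with both drugs, and its part in the results was not tested. The actin-responsive genes Acta2, Srf, Vcl and Tagln, looked at as a check of the treatment, were all 4 called higher with cytochalasin D, and 1 of 4 with both drugs. Their summed level was 6621 to 9542 in controls, 30696 to 35378 with cytochalasin D and 15146 to 18410 with both drugs, and 0 of 4 were called between the drug groups. The arrays hold RNA of whole cultures, so fewer cells with a transcript and less of it per cell cannot be told apart.

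Ptgs2 rose on both probe sets under cytochalasin D. Probe set 1417262_at read 3822, 4024 and 4953 in controls (replicates 1, 3 and 7), 9611, 10795 and 13538 with cytochalasin D, and 8558, 7383 and 9560 with both drugs. All 3 cytochalasin D arrays lay above all 3 arrays with both drugs, and these above all 3 controls. The control mean was 4266 ± 603 and the cytochalasin D mean 11315 ± 2014 (SD, n = 3), 2.65 times the control mean. On the log2 scale this was a change of 1.40 (SE 0.16, limma adjusted p = 0.00993).

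The second Ptgs2 probe set, 1417263_at, comes from the same sequence record and was dimmer. It read 1222, 698 and 792 in controls, 4464, 4123 and 4238 with cytochalasin D, and 3362, 1712 and 1800 with both drugs. The cytochalasin D values lay close together, and the control and the double-drug array of replicate 1 stood above the other two of their groups. Its mean went from 904 ± 280 to 4275 ± 174 (SD, n = 3), 4.73 times the control mean, a log2 change of 2.26 (SE 0.30, limma adjusted p = 0.0172). So both probe sets rose, but by different sizes, and the difference between their changes was not tested.

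The receptor gene Ptger4 rose by similar factors. Its brighter probe set, 1424208_at, read 1291, 1930 and 1880 in controls, 3766, 4158 and 5659 with cytochalasin D, and 2121, 2783 and 3241 with both drugs. The groups again stood in 3 steps with no overlap. The means were 1700 ± 356 and 4528 ± 999 (SD, n = 3), a ratio of 2.66 and a log2 change of 1.41 (SE 0.24, limma adjusted p = 0.045).

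Probe set 1421073_a_at of Ptger4, made from another sequence record, read 83.0, 46.5 and 47.8 in controls, 277, 221 and 205 with cytochalasin D, and 94.1, 73.7 and 90.9 with both drugs. Here the cytochalasin D arrays stood alone at the top, and the double-drug arrays overlapped with control replicate 1. The mean went from 59.1 ± 20.7 to 234 ± 37.8 (SD, n = 3), 3.96 times the control mean, a log2 change of 1.76 (SE 0.20, limma adjusted p = 0.00957). At such low intensities the added 16 makes the change smaller, and it was 2.01 with an added 1 and 1.28 with an added 64.

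**Figure D1:**
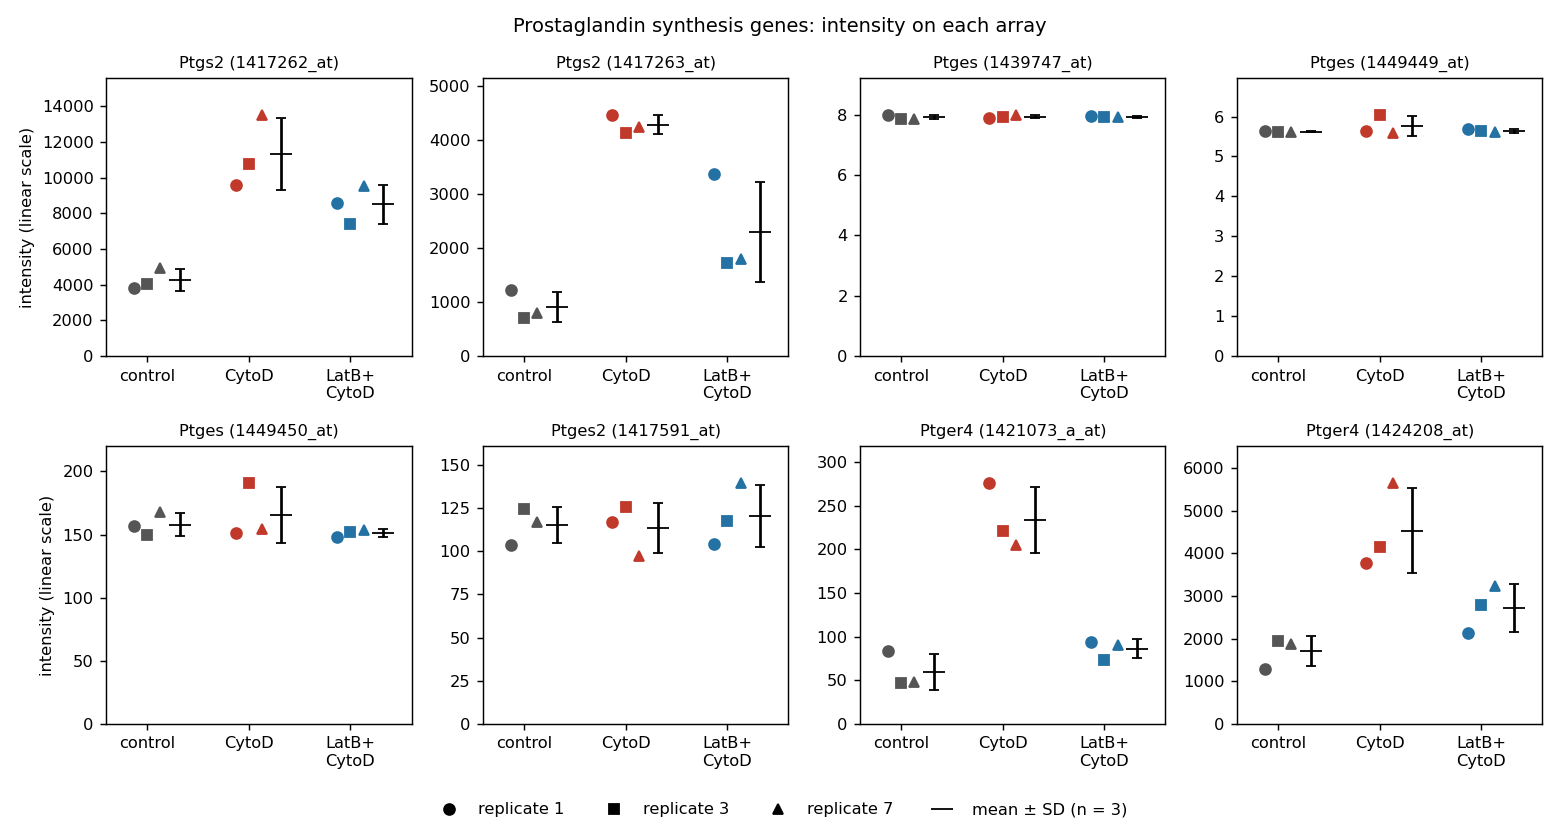
Intensity on a linear axis for the 8 member probe sets, 1 panel each, with a marker per array (replicates 1, 3 and 7) and the mean ± SD of each group beside it. Both probe sets of Ptgs2 and both of Ptger4 have their 3 highest values in the cytochalasin D group, while those of Ptges and Ptges2 overlap between groups.

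The synthases that act after Ptgs2 were not called. Ptges probe set 1449450_at read 157, 149 and 168 in controls, 151, 191 and 154 with cytochalasin D, and 148, 152 and 154 with both drugs. These values overlap, and the log2 change with cytochalasin D was 0.06 with a 95% interval from -0.14 to 0.26. The other tested Ptges probe set, 1439747_at, stayed between 7.87 and 8 on all 9 arrays, close to the array medians.

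Ptges2, the second membrane-associated synthase, read 104, 125 and 117 in controls, 117, 125 and 97.3 with cytochalasin D, and 104, 118 and 140 with both drugs. No group stood apart. Its log2 change with cytochalasin D was -0.02, with a 95% interval from -0.32 to 0.27, and with both drugs 0.05, with an interval from -0.24 to 0.34. The intervals of Ptges 1449450_at and of Ptges2 lie below the changes of Ptgs2 and Ptger4, but do not show that these transcripts stayed the same.

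In the contrast of cytochalasin D with control, limma called 4 of the 7 tested member probe sets higher (Ptgs2 and Ptger4, both probe sets each) and 0 lower. Over all probe sets tested 1.56% were called, 1.14% higher and 0.422% lower. The first Ptgs2 probe set ranked 104 and the second 37 among the 309 called higher, by the size of the log2 change. Those of Ptger4 ranked 103 (1424208_at) and 70 (1421073_a_at). In the same 4 probe sets all cytochalasin D values lay above all control values, which held for 5.05% of all probe sets tested, and groups did not overlap, in either direction, for 11.5%. The median log2 change of the 7 was 1.40, against -0.001 over all probe sets tested.

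These calls rested on all 9 arrays to different degrees. Ptger4 1421073_a_at kept its call with any single array left out. Ptgs2 1417262_at lost it without control replicate 3 (adjusted p = 0.054). Ptgs2 1417263_at lost it without control replicate 3 or 7 (0.0746 and 0.0796) and without cytochalasin D replicate 1, 3 or 7 (0.0514, 0.078 and 0.0615). Ptger4 1424208_at lost it whichever array was left out, at an adjusted p of 0.0593 to 0.138. The log2 changes themselves stayed between 1.26 and 1.51, 2.10 and 2.50, 1.64 and 1.97, and 1.22 and 1.53 for these probe sets in the order Ptgs2 1417262_at, Ptgs2 1417263_at, Ptger4 1421073_a_at and Ptger4 1424208_at. The count of members called was 1 without control replicate 3 and 2 without control replicate 7 or any single cytochalasin D array. It was 3 without control replicate 1 or any single double-drug array. Over all 27034 probe sets tested, calls went from 423 to 235 and 243 without control replicates 3 and 7. Without cytochalasin D replicates 1, 3 and 7 they were 487, 230 and 353. They were 406 without control replicate 1, and 326, 276 and 305 without double-drug replicates 1, 3 and 7.

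**Figure D2:**
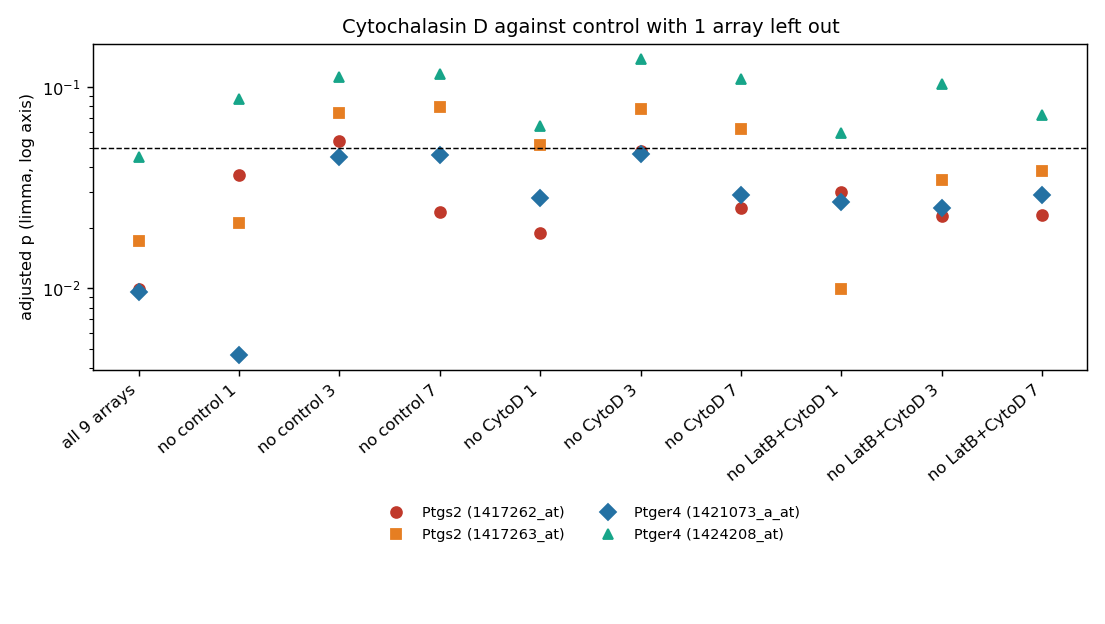
Adjusted p of limma (log axis) for cytochalasin D against control, with all 9 arrays and with each array left out in turn, for both probe sets of Ptgs2 and of Ptger4; the dashed line is the threshold of 0.05. Ptger4 1421073_a_at stays under the line throughout, and Ptger4 1424208_at lies above it in every fit with an array left out.

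With latrunculin B added to cytochalasin D, Ptgs2 had a mean between those of the other groups. For 1417262_at it was 8500 ± 1090 (SD, n = 3), 1.99 times the control mean, a log2 change of 0.99 against control (SE 0.16, limma adjusted p = 0.141). For 1417263_at it was 2291 ± 928 (SD, n = 3), 2.53 times the control mean, a log2 change of 1.30 (SE 0.30, limma adjusted p = 0.338). Neither passed the test, although on both probe sets every double-drug array lay above every control.

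Ptger4 had a mean of 2715 ± 563 (SD, n = 3) on 1424208_at with both drugs, 1.60 times the control mean, a log2 change of 0.67 (SE 0.24, limma adjusted p = 0.786). On 1421073_a_at it was 86.2 ± 11 (SD, n = 3), 1.46 times the control mean, a log2 change of 0.47 with a 95% interval from -0.01 to 0.96 (limma adjusted p = 0.975). The first of these had no overlap with controls and the second did.

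In this contrast 0 of the 7 tested member probe sets were called by limma, where 0.111% of all probe sets tested were (0.0999% higher, 0.0111% lower). At an unadjusted p under 0.05 there were 3, both of Ptgs2 and Ptger4 1424208_at, as were 5.27% of all probe sets tested. The 0 depended on the filter: with probe sets required to lie above the 60th percentile, limma called Ptgs2 1417262_at (adjusted p = 0.0497). The same 3 had all double-drug values above all controls, as had 4.09% of all probe sets tested, with no overlap in either direction for 8.07%. The median log2 change of the 7 was 0.47, against 0.003 over all probe sets tested.

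Set directly against the double-drug group, cytochalasin D alone gave higher values on both probe sets of both genes. Ptger4 1421073_a_at had the largest difference, 2.71 times the double-drug mean and 1.29 on the log2 scale (SE 0.20, limma adjusted p = 0.109). It came under the threshold when control replicate 1 was left out (adjusted p = 0.0362). Ptger4 1424208_at differed by 0.73 (SE 0.24, limma adjusted p = 0.845), Ptgs2 1417263_at by 0.97 (SE 0.30, limma adjusted p = 0.785) and Ptgs2 1417262_at by 0.41 (95% interval from 0.02 to 0.79, limma adjusted p = 1).

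Here too 0 of 7 were called by limma, with 0.259% called over all probe sets tested (0.248% higher, 0.0111% lower). With the filter at the 60th percentile, limma called Ptger4 1421073_a_at (adjusted p = 0.0375). There 6 members were tested and 91 of 18175 probe sets were called, against 70 of 27034 with the 40th percentile filter. Of the 7, 4 had an unadjusted p under 0.05, against 4.22% of all probe sets tested. In the same 4 all cytochalasin D values lay above all double-drug values, as in 2.92% of all probe sets tested. Groups did not overlap in either direction for 6.25%. The order of the means was thus control, both drugs, cytochalasin D for both genes. In the fit with the 40th percentile filter the ends of this order, control and cytochalasin D, passed the test and neither pair of neighbours did. With the 60th percentile filter 1 of the 6 member probe sets tested there passed for each pair of neighbours. The 3 contrasts share their arrays, so they are not independent of each other.

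**Figure D3:**
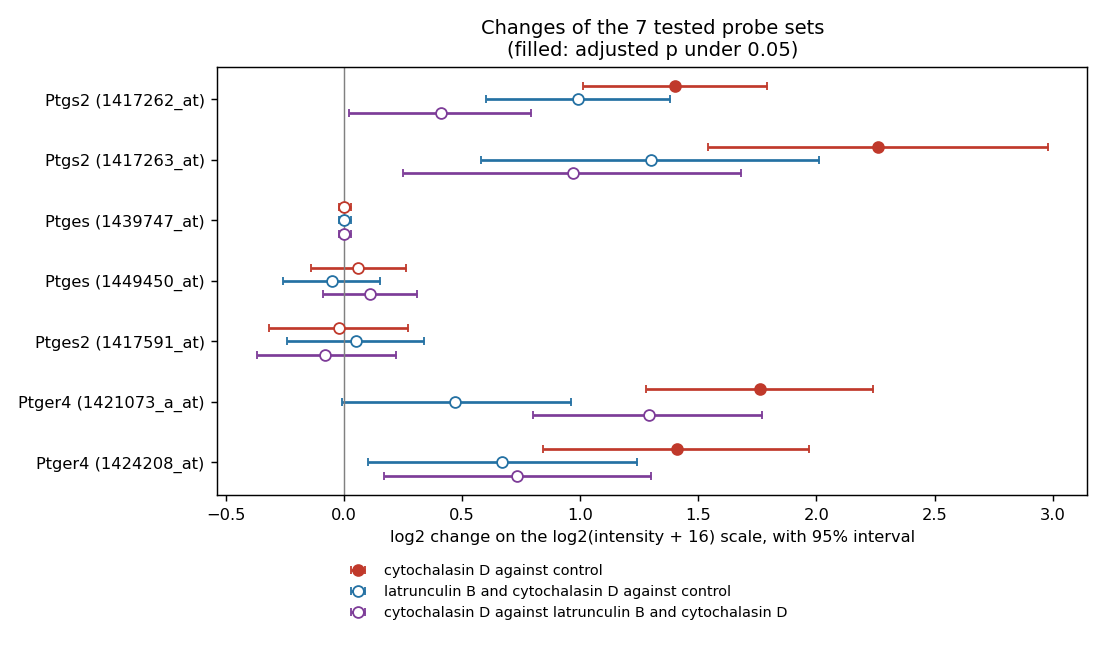
Log2 change on the log2(intensity + 16) scale with its 95% interval for the 7 tested member probe sets in the 3 contrasts, filled where the adjusted p was under 0.05. The 4 filled points are Ptgs2 and Ptger4 with cytochalasin D against control, from 1.40 to 2.26, and the double-drug changes of the same probe sets run from 0.47 to 1.30.

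No further gene of the prostanoid pathway was called, where 1.56%, 0.111% and 0.259% of all probe sets tested were called in the 3 contrasts, so that few or no calls would fall in a list of this size. A list of 37 further genes was followed, of which 35 had a probe set (62 in all) and 20 a tested one (32 in all). Of these 32, limma called 0 higher and 0 lower in each of the 3 contrasts, and so did every alternative fit. At an unadjusted p under 0.05 there were 2 with cytochalasin D, 1 with both drugs and 0 between the drug groups, against 10.2%, 5.27% and 4.22% of all probe sets tested. The median log2 change with cytochalasin D was -0.01, with a range from -0.24 to 0.11, while the middle 95% of all probe sets tested ran from -0.38 to 0.51. Among the 32, however, 11 stayed under 20 on all 9 arrays, where the added 16 makes a change smaller.

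Among enzymes that free arachidonic acid, 11 probe sets of 8 genes were tested. Pla2g4a, the cytosolic phospholipase that feeds cyclooxygenases, read 1362 ± 166 in the control group, 1474 ± 229 under cytochalasin D and 1470 ± 140 under both drugs (SD, n = 3). These values differed by less than their spread. Pla2g15, a lysosomal phospholipase, had on 1423704_at a log2 change of -0.16 with cytochalasin D (limma adjusted p = 0.487) and -0.19 with both drugs (0.77). Its other tested probe set, 1422341_s_at, had changes of 0.09 and 0.02. None of these passed the test. Pla2g5, a secreted phospholipase, went from 54.7 ± 2.99 to 76.7 ± 23.2 with both drugs (SD, n = 3), a log2 change of 0.36 that did not pass either (limma adjusted p = 1).

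Synthases of other prostanoids were tested with 5 probe sets. Ptgis, the prostacyclin synthase that also uses the product of Ptgs2, read 839 ± 72.5 in the control group, 786 ± 63.4 under cytochalasin D and 773 ± 41.2 under both drugs (SD, n = 3). Its change with both drugs was -0.11 (limma adjusted p = 1). Probe sets for Ptgds and Tbxas1, the prostaglandin D and thromboxane synthases, stayed under 20 on all arrays.

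Ptger4 was the prostanoid receptor with values above that level. The 8 other receptor genes of the list (Ptger1, Ptger2, Ptger3, Ptgdr, Ptgdr2, Ptgfr, Ptgir and Tbxa2r) had 14 probe sets, of which 0 reached 20 on any array, the highest value being 11.5. Probe sets differ in how well they bind, so this does not rank the receptors. Ptgir, the prostacyclin receptor, had a log2 change of -0.04 with cytochalasin D (limma adjusted p = 0.815). Ptgfrn, a membrane protein that binds the prostaglandin F receptor, read 536 ± 53.2 in the control group and 526 ± 98.7 under cytochalasin D (SD, n = 3).

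Genes that carry away or break down prostaglandins showed small changes. Slco2a1, the prostaglandin transporter, went on 1420913_at from 339 ± 24.0 to 287 ± 42.4 with cytochalasin D and 287 ± 25.4 with both drugs (SD, n = 3). These were log2 changes of -0.24 and -0.23 (limma adjusted p = 0.592 and 1). Its probe sets 1444242_at and 1450032_at changed by -0.03 and -0.09 with cytochalasin D, and by 0.07 and -0.20 with both drugs. Slco2a1 1420914_at stayed between 8.13 and 8.42 on all arrays. Cbr3, a carbonyl reductase, had a change of -0.20 with cytochalasin D (limma adjusted p = 0.491), and Ptgr1, a prostaglandin reductase, differed by 0.07 between the drug groups (limma adjusted p = 1). None of these passed the test. Hpgd, which inactivates prostaglandin E2, stayed under 5 on all arrays.

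**Figure D4:**
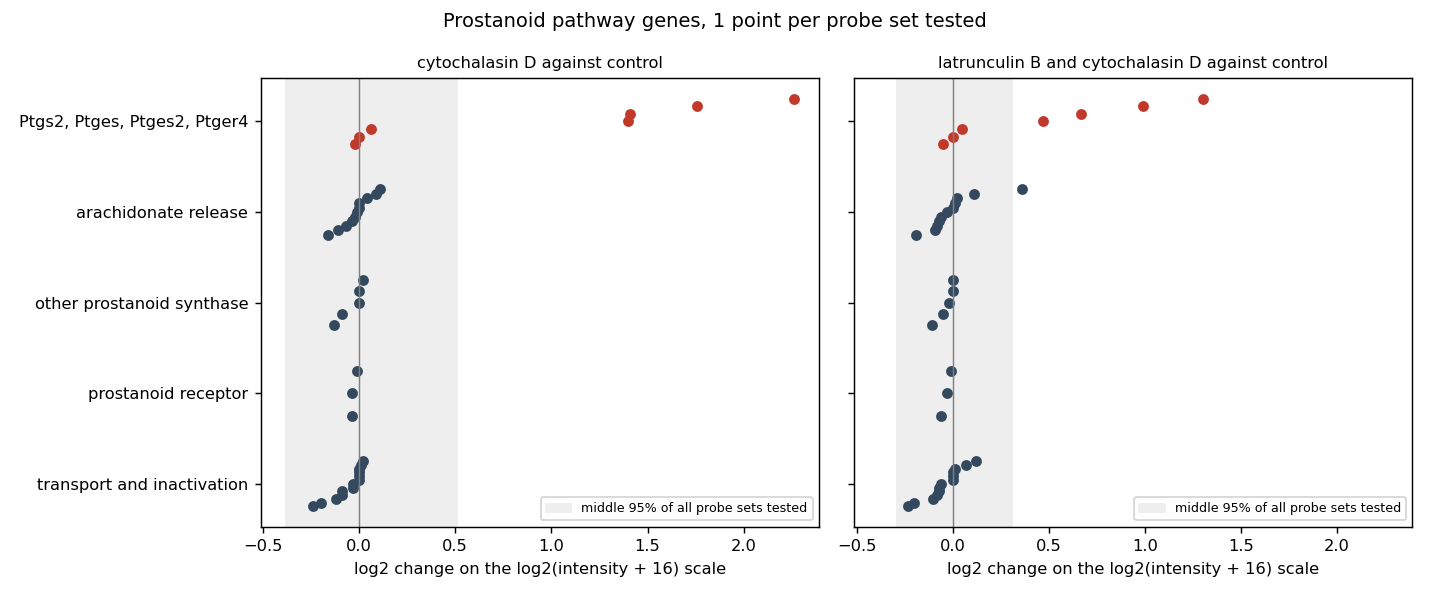
Log2 change of each tested probe set on the log2(intensity + 16) scale with cytochalasin D (left) and with both drugs (right) against control, for the members (top row, 7 points) and the pathway list by role (32 points). The grey band is the middle 95% of all probe sets tested, and 4 member points lie to its right in both panels, joined by Pla2g5 (0.36) with both drugs.

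The genes whose values followed each member most closely over the 9 arrays were looked up among 12656 genes with a tested probe set, by Pearson's r on the log2 scale. For Ptgs2 1417262_at they were Zfp36, an mRNA decay factor (r = 0.984), Egr3, an immediate-early transcription factor (0.981), Tada3, a subunit of histone acetyltransferase complexes (0.979), Tubb6, a beta-tubulin (0.977), and Slc2a1, the glucose transporter GLUT1 (0.976). Their log2 changes ranged from 0.43 to 2.59 with cytochalasin D and from 0.26 to 2.01 with both drugs. For Ptger4 1424208_at they were Tle4, a co-repressor (r = 0.994), Cnn3, a calponin (0.988), Gpr176, an orphan receptor (0.987), Itprip (0.982) and Ppp1r12a, the myosin phosphatase targeting subunit (0.982). Their log2 changes ranged from 0.16 to 1.64 and from 0.07 to 0.86. The other probe set of the same gene followed less closely, Ptgs2 1417263_at at r = 0.883 and Ptger4 1421073_a_at at 0.767. Both lists therefore hold for the probe set used and not for the gene as such. These r values describe arrays that fall into 3 treated groups and were picked as the highest of many, so they carry no test.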

How the data were processed

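Total RNA of 9 NIH 3T3 cultures was measured on Affymetrix arrays. The authors deposited normalized intensity values, not on a log scale; per the submitters' processing notes MAS5 and GCRMA were used, without versions or which of them made these values. The genome build is not given in the sources used here. Of 45101 probe sets, 64 control probe sets were left out. Symbols come from the platform annotation, updated through a RefSeq table (GRCm38.p6, names only).

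With log2(intensity + 16), models with 1 coefficient per group and all 9 arrays were fitted with limma 3.58.1 in R 4.3.3 (lmFit, eBayes), and checked on simulated data. The simulated noise was independent between arrays, so the check does not cover the correlation seen among same-numbered arrays. Tests were two-sided. The number of arrays limits precision.

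The genes named are all members, list genes with a call or among the 4 smallest p of a contrast, and the 5 genes most like each called member in pattern, each gene by its probe set with the highest mean. Pla2g4a, Ptgfrn, Ptgds, Tbxas1 and Hpgd were named after their values were seen. Members, lists and rules were chosen with earlier results of these data known. Replicate numbers were not taken as pairs.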

Additional observations from a re-analysis of the deposited data

How the results depend on the processing

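Members and the pathway list were refitted under 21 alternatives (under the 60th percentile filter, without Ptges 1439747_at and with 21 list probe sets), 3 of which, leaving out all arrays of 1 replicate number, were chosen after seeing the data. The count of 4 members called with cytochalasin D became 1 in a fit on the 6 arrays compared. With 1 array left out it ranged from 1 to 3. It was 2, 0 and 0 without replicates 1, 3 and 7, where 2 arrays per group remain. Calls over all 27034 probe sets tested went from 423 to 159 in the 6-array fit. They ranged from 230 to 487 with 1 array left out, and were 305, 0 and 30 without replicates 1, 3 and 7. Quantile normalization, an added 64 and no filter on dim probe sets each ended the call of Ptger4 1424208_at (adjusted p = 0.0609, 0.0531 and 0.0929). In the 6-array fit, Ptgs2 1417262_at, Ptger4 1421073_a_at and Ptger4 1424208_at lost theirs (0.0694, 0.0802 and 0.15). No called change turned its sign. With both drugs against control the count of 0 became 1 with the filter at the 60th percentile and 1 with the replicate number as a block, Ptgs2 1417262_at each time (0.0497 and 0.0293). Over all probe sets, calls there were 74 of 18175 and 121 of 27034, against 30 of 27034. Between the drug groups the member count became 1 with that filter, 1 with the block and 1 without control replicate 1, Ptger4 1421073_a_at each time (0.0375, 0.0456 and 0.0362). Over all probe sets, calls were then 91 of 18175, 99 of 27034 and 59 of 27034, against 70 of 27034. Same-numbered arrays correlated in their deviations from the group means at 0.0762 to 0.834 over 9 pairs, and differently numbered ones at -0.722 to 0.391 over 18. As 1 of the 9 missed the bound of 0.1, the numbers were not taken as pairs, though 8 of 9 lay above every differently numbered pair and each array correlated best with one of its own number, a hint from the data and not from the design. The block left all 4 calls with cytochalasin D and raised calls over all probe sets from 423 to 1044. The pathway list stayed at 0 throughout. With 3 arrays per group, changes as small as those of the synthases and the pathway list could not be parted from 0.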

Other observations

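Ptges3l, a relative of the co-chaperone p23 (Ptges3), was looked at after its values were seen. Its probe set 1454256_s_at read 153, 110 and 128 in controls, 261, 274 and 253 with cytochalasin D, and 157, 159 and 160 with both drugs. All 3 cytochalasin D arrays stood above the other 6, and the log2 change against control was 0.94 (SE 0.10, limma adjusted p = 0.00671), while against the double-drug group it was 0.67 (limma adjusted p = 0.0875). A second probe set, 1432073_at, averaged 202 ± 24.1 across control arrays against 466 ± 122 after cytochalasin D (SD, n = 3), and its log2 change of 1.12 did not pass the test (limma adjusted p = 0.0965), and the third stayed under 8 on all arrays.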
